A study of Mus musculus with 30 samples.

Results

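The comparison described here set the stroke-denervated side of the mouse cervical spinal cord at 7 dpi (days post injury) against the same tissue of sham-operated mice. Its members were chosen by label alone, as the 5 animals labelled 7d (A7-2, A7-3, A7-4, A8-1 and A8-3) and the 5 labelled Ctrl (A11-1, A11-4, A12-1, A12-2 and A12-3), which are 10 of the 29 animals of the series with values. All were adult C57BL/6 mice by the labels, given as C57BL/6J and female in the study's methods, killed by perfusion with Ringer's solution. The 7 dpi animals had received a unilateral photothrombotic stroke of the right sensorimotor cortex, in which light activates a circulating dye and closes the vessels under the skull. The sham animals had the operation without the illumination. RNA came from the intermediate layer at C5/C6, 1 animal per library, and the animals sequenced had been picked for a sufficient lesion and motor deficit and for good dissection and RNA. The first number in an animal's name (A7, A8, A11, A12) is not shared between the groups, so whatever it stands for and the stroke cannot be told apart.

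Axons of the corticospinal tract run from the motor cortex, cross to the other side and end on interneurons of the intermediate laminae. When the cortex on one side is destroyed these axons degenerate over days to weeks, microglia clear the debris, astrocytes react, and spared axons from the intact cortex can grow into the vacated territory. The libraries were made from total RNA after removal of ribosomal RNA, so they also hold transcripts without a poly(A) tail, among them the short structural RNAs of RNA polymerase III: 7SL, the scaffold of the signal recognition particle, 7SK, which holds back the transcription elongation factor P-TEFb, the Y RNAs bound by the Ro60 protein, and the RNA parts of the enzymes RNase MRP and RNase P.

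The values are the authors' normalized CPM (read counts scaled for sequencing depth) of 16995 genes. Differences were tested with limma on log2(value + 0.5), with 1 mean per group over all 29 animals, so that a log2 fold change is on the scale of log2(value + 0.5) and understates the change of low genes. A significantly differentially expressed gene (SDEG) had a Benjamini-Hochberg adjusted p under 0.05 over all 16995 genes and a fold change above 1.5. No library stood apart by correlation: the 10 pairs of sham animals correlated at r = 0.981 to 0.990, the 10 pairs of 7 dpi animals at 0.983 to 0.990 and the 25 pairs across the groups at 0.980 to 0.990. The remaining 18S ribosomal RNA (Rn18s-rs5) ranged from 30321 to 52929 in the sham animals and from 36202 to 116302 in the 7 dpi animals, highest in A7-2. Neuronal markers were at high levels in both groups, such as Snap25 (mean 1650 in sham, 1685 at 7 dpi) and the glycine transporter gene Slc6a5 (337 and 378), and none of the 11 reached an unadjusted p under 0.05. The median log2 fold change was 0.02 for these 11 neuronal genes and 0.02 for 18 homeostatic astrocyte genes.

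At 7 dpi 5 genes fell and none rose. These 5 SDEGs are 0.0294% of the genes tested, against 0 (0%) in the upward direction. They were 3 short noncoding RNAs (Rn7s6, Rny3 and Gm26315), the neuropeptide precursor gene Vgf and the splicing kinase gene Srpk3. Without any adjustment, 378 genes (2.22%) were higher and 614 (3.61%) lower at p under 0.05, together 5.84% of all genes where 5% would lie if no gene differed. The shares of 2.22% and 3.61% are the background for the counts of list members against sham given below. In 66 genes (0.388%) all 5 stroke animals lay above all 5 sham animals, and in 99 (0.583%) all lay below. No gene rose in any of the 10 limma fits that each left out 1 animal. Rescaling every animal to the same sum of values lowered the median of all genes by 0.07 on the log2 scale and gave 20 SDEGs, 4 of them higher, with 56 genes higher and 181 lower at an unadjusted p under 0.05.

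Rn7s6 (ENSMUSG00000092746), annotated as a miscellaneous RNA, had the lowest adjusted p of the SDEGs. Of its 31-base words, 54.8% occur in Rn7s1, a 7SL RNA gene. Reads that fit both could be divided between the genes, so its level is uncertain. Rn7s6 read 5.2, 5.2, 2.9, 3.0 and 2.8 normalized CPM in the sham animals and 0.7, 0.3, 0.3, 0.3 and 0.5 in the 7 dpi animals. Every stroke animal was below every sham animal, with no value between 0.7 and 2.8. The mean fell from 3.82 ± 1.26 to 0.42 ± 0.18 (SD, n = 5 each), a log2 fold change of −2.20 with a standard error of 0.30 (limma, adjusted p = 0.000499). It remained an SDEG under 22 of the 22 other settings tried, with adjusted p between 2.925e-11 and 0.00489. The 7 dpi values are only a few steps of the 0.1 to which the deposited values are rounded, which limits the precision of the fold.

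Rn7s1 itself, all of whose 31-base words occur in Rn7s2, lay between 15100 and 26316 in sham and between 6425 and 19717 at 7 dpi (log2 fold change −0.62 ± 0.25 SE, adjusted p = 0.802 by limma), with −0.37 without A7-4 and −0.30 with quantile normalization. Its groups overlapped through A7-2. Expressed per 100000 units of Rn7s1 in the same animal, Rn7s6 was at 15.2 to 21.1 in sham and at 2.13 to 4.67 at 7 dpi, so that the groups stayed apart on this scale too. A second gene that shares words with Rn7s1, Gm26461 (30.4% of its words), was also lower in every stroke animal, at 1.4 to 2.8 in sham and 0.2 to 1.0 at 7 dpi (−1.08 ± 0.24 SE, adjusted p = 0.164 by limma), and did not pass the test.

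Gm26315 (ENSMUSG00000065824, chr2:7076094-7076414 in GRCm38, minus strand) lies in an intron of Celf2 on the same strand, so reads from unspliced Celf2 RNA could be counted with it. It shares 235 of its 321 bases with the 7SK gene Rn7sk in 31-base words, as does Gm24447 (chr15:93234363-93234700, plus strand) for 241 of 338. Their last 142 and 157 bases are shown because both run from the 7SK sequence, in capitals, into other sequence. Of their 31-base words 70.5% and 74.7% occur in other genes, so both values are uncertain.

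Gm26315: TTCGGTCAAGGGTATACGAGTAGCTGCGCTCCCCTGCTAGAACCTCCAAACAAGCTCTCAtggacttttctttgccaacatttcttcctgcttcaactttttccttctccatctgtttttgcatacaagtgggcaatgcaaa
Gm24447: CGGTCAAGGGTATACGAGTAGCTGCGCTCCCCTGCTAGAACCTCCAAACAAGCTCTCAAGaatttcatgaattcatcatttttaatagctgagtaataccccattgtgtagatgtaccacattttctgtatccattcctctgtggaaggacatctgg

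Gm26315 read 8.8, 8.2, 3.8, 5.1 and 4.4 in sham and 1.4, 1.9, 0.7, 2.0 and 3.0 at 7 dpi, without overlap. It fell by 1.53 on the log2 scale (SE 0.30, adjusted p = 0.0496 by limma) and was an SDEG under 7 of 22 other settings. Gm24447 was lower in every stroke animal as well, at 4.4 to 7.0 in sham and 1.4 to 3.4 at 7 dpi (−1.07 ± 0.21 SE, adjusted p = 0.0594 by limma), short of the threshold. Rn7sk, from which the capitals come, was at 8392 to 14418 in sham and 4122 to 11251 at 7 dpi (−0.53 ± 0.23 SE, adjusted p = 0.840 by limma; −0.31 without A7-4 and −0.81 with quantile normalization), and its groups overlapped. Per 100000 units of Rn7sk in the same animal, Gm26315 was at 45.3 to 61.0 in sham and 12.4 to 36.3 at 7 dpi, and Gm24447 at 40.9 to 61.4 and 17.4 to 43.7, where the groups overlapped through A7-4.

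Rny3 (ENSMUSG00000064945, chr6:47781624-47781725, plus strand) and Rny1 (ENSMUSG00000065701, chr6:47788069-47788180, minus strand) encode Y RNAs and are neighbors. They are printed, as annotated in GRCm38, to show how far they share sequence: the capitals mark the 28 bases that lie in 8-base words found in both, and Rny3 shares no 31-base word with any annotated transcript of another gene. Of Rny1's, 37.8% occur in Gm26168, so its level is uncertain.

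Rny1: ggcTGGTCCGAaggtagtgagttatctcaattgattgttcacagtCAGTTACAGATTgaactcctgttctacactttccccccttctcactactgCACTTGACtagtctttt
Rny3: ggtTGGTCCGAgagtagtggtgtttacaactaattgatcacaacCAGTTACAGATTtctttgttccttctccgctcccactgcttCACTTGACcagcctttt

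The words shared lie at both ends, which pair in the stem of Y RNAs, and in the middle. Rny3 read 3.0, 5.8, 9.8, 9.7 and 5.2 in sham and 2.4, 0.8, 0.7, 1.6 and 1.5 at 7 dpi. The groups did not overlap, but the lowest sham animal (A11-1, 3.0) and the highest stroke animal (A7-2, 2.4) were close. Rny3 fell by 1.89 on the log2 scale (SE 0.37, adjusted p = 0.0496 by limma) and was an SDEG under 8 of 22 other settings. Rny1 read 4.4, 4.0, 5.8, 6.6 and 3.5 in sham and 3.1, 1.0, 1.0, 2.2 and 1.0 at 7 dpi, again without overlap (−1.38 ± 0.36 SE), and did not pass the test (adjusted p = 0.542 by limma).

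**Figure D1:**
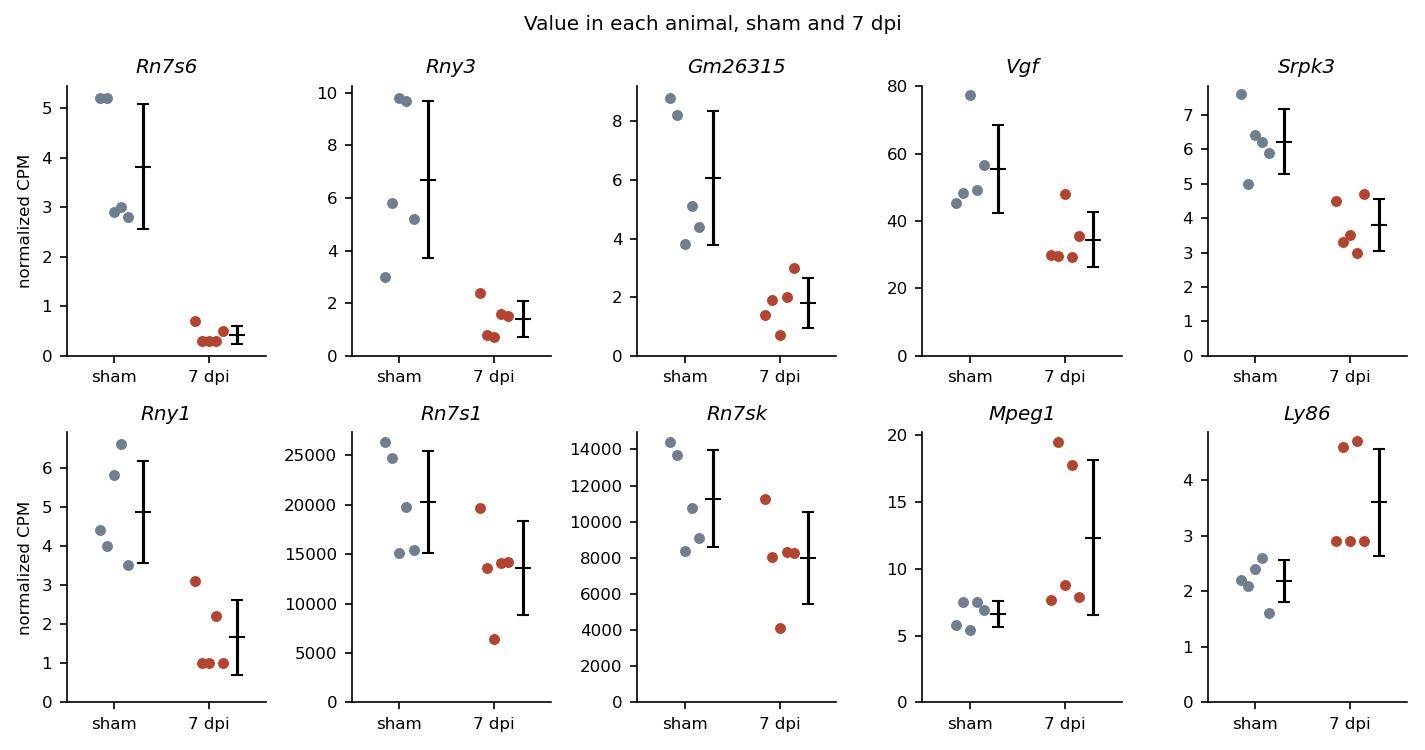
Normalized CPM of 10 genes in each of the 5 sham (gray) and 5 7 dpi (red) animals, 1 point per animal, with the mean and SD in black beside them and each axis starting at 0. For Rn7s6 the sham animals lie between 2.8 and 5.2 and the 7 dpi animals between 0.3 and 0.7, whereas for Rn7s1 and Rn7sk the groups overlap through 1 stroke animal.

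The same direction ran through the short noncoding RNAs as a class. The table holds 96 genes whose annotated type is snRNA, snoRNA, scaRNA, ribozyme or miscellaneous RNA, a list drawn up after their values had been seen. Of these, 86 were lower at 7 dpi, 46 at an unadjusted p under 0.05 against 3.61% of all genes, and none was higher at that level. Their median log2 fold change was −0.54, where the median of all genes was −0.00037, and 12 of the 96 did not overlap. Some members are repeats of one another: the U3 snoRNA genes Rnu3b1 to Rnu3b4, the copies of U1 snRNA, and Rn7s1 with Rn7s2 have nearly the same sequence and value, so the 96 are fewer separate transcripts than genes. By type, the median was −0.61 over 22 snRNA genes, −0.53 over 23 miscellaneous RNA genes, −0.43 over 41 snoRNA genes and −0.38 over 8 scaRNA genes. A shorter list of 30 small noncoding RNA genes, all among the 96, had a median of −0.61, with 2 SDEGs and with 20 lower and none higher at an unadjusted p under 0.05. Of these 30, 25 were lower without A7-2, 11 without A7-4, 12 without A11-4 and 13 without A11-1.

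Rmrp, the RNA of RNase MRP, which cuts ribosomal RNA precursors, was the abundant member nearest to the threshold. It read 801, 682, 542, 684 and 469 in sham and 480, 310, 156, 296 and 265 at 7 dpi. In 4 of 5 stroke animals it was below every sham animal, and A7-2 was just above the lowest of them. Its log2 fold change was −1.14 (SE 0.23, adjusted p = 0.0703 by limma), and without A7-2 it was −1.33 and an SDEG (adjusted p = 0.0188 by limma). Rpph1, the RNA of RNase P, which trims transfer RNA precursors, was lower by less, at 1199 to 1928 in sham and 571 to 1665 at 7 dpi (−0.59 ± 0.22 SE, adjusted p = 0.791 by limma), and was at −0.38 without A7-4.

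The animals of the stroke group were not alike in this class. The median over the 96 genes of the log2 value minus the sham mean lay between −0.14 and 0.08 in the sham animals. At 7 dpi it was 0.03 in A7-2, −0.71 in A7-3, −1.001 in A7-4, −0.50 in A8-1 and −0.48 in A8-3. A7-2, the animal with the most 18S RNA, thus lay within the sham range and the other 4 stroke animals below it. Without A7-2 the median log2 fold change of the class was −0.66, and 57 of 96 were lower at an unadjusted p under 0.05. Without A7-4 these were −0.38 and 26 of 96, and without any other single animal −0.50 to −0.60 and 28 to 46. None was higher at that level in any of these fits. After correction of each animal for length and GC content the median was −0.37.

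Over the 30 genes whose longest annotated transcript has from 150 to under 200 bases the median log2 fold change was −0.49, and over the 81 under 150 bases, which include transfer RNA and microRNA genes, it was −0.15. Within the short noncoding RNAs the median was −0.43 under 150 bases, −0.61 from there to 200, −0.44 from 200 to 300 and −0.59 from 300 to 400. Protein-coding genes went weakly the other way, from 0.14 at 600 to 1000 bases to −0.03 at 8000 or more. A step of extraction or library preparation that recovers short RNA unevenly was not tested.

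**Figure D2:**
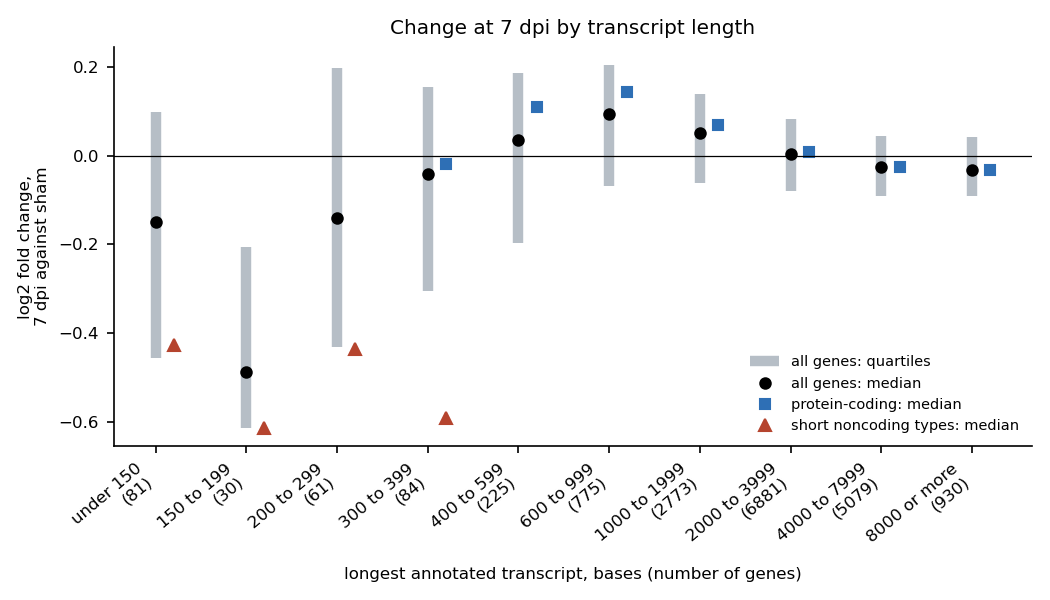
Median log2 fold change at 7 dpi against sham (vertical axis) by the length of the longest annotated transcript (horizontal axis, number of genes in brackets). Black points and gray bars are the median and quartiles of all genes, blue squares protein-coding genes and red triangles short noncoding RNAs, drawn where a class has at least 10 genes. The red triangles lie between −0.61 and −0.43, and the blue squares stay within 0.15 of 0.

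Replication histones are another group of short transcripts, in this case messenger RNAs that end in a stem-loop and have no poly(A) tail. Of 63 histone genes, 11 were lower at an unadjusted p under 0.05, against 3.61% of all genes. None was higher at that level, and the median log2 fold change was −0.20. Without A7-4 or without A11-1 the count was 6. Hist1h4m, which encodes histone H4, was at 9.3 to 13.5 in sham and 3.3 to 8.9 at 7 dpi without overlap (−0.88 ± 0.27 SE, adjusted p = 0.692 by limma), and Hist1h2bq was at 0.6 to 1.2 and 0.0 to 0.5. These values are uncertain, since 91.7% and 98.3% of their 31-base words occur in other genes. Neither passed the test. The asparagine transfer RNA gene of the mitochondrion, mt-Tn, was at 8.2 to 14.7 in sham and 6.5 to 7.5 at 7 dpi, also without overlap (−0.62 ± 0.17 SE, adjusted p = 0.667 by limma), and with each animal corrected for length and GC content its log2 fold change was −0.20. The 17 mitochondrial transfer RNA genes as a class had a median of 0.11, with 6 of the 17 below 0, and 1 was higher and 2 were lower at an unadjusted p under 0.05. Among nuclear long noncoding RNAs, 4 of 14 were lower at an unadjusted p under 0.05, against 3.61% of all genes. None was higher at that level, and the median was −0.11 (−0.07 without A8-1 or without A11-1). The number lower was 1 without A8-1 and 2 without A7-3 or without A11-1. Sox2ot, which runs through the Sox2 locus, was at 39.9 to 70.8 in sham and 38.3 to 51.6 at 7 dpi.

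Vgf (ENSMUSG00000037428, chr5:137026392-137033351, plus strand) encodes the precursor of secreted neuropeptides and is a known target of neurotrophin signaling. It read 45.3, 48.3, 77.5, 49.1 and 56.5 in sham and 29.8, 29.6, 48.1, 29.3 and 35.7 at 7 dpi. In 4 of the stroke animals it was below all sham animals, and A7-4, at 48.1, lay among them. Vgf fell by 0.67 on the log2 scale (SE 0.13, adjusted p = 0.0496 by limma), and the exact two-sided permutation p over the 10 animals was 0.0159. It was an SDEG under 7 of 22 other settings, and without A7-4 the fold change was −0.80 (adjusted p = 0.00252 by limma). Bdnf, the neurotrophin, was at 4.0 to 6.2 in sham and 2.1 to 4.2 at 7 dpi (−0.52 ± 0.17 SE, adjusted p = 0.791 by limma) and did not pass the test. Of the 22 neurotrophic genes these were the only members lower at an unadjusted p under 0.05, none was higher at that level, and the median of the list was 0.04. Vegfa, the vascular growth factor, was at 38.8 to 59.4 in sham and 32.2 to 37.1 at 7 dpi, without overlap (−0.43 ± 0.11 SE, adjusted p = 0.487 by limma).

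Srpk3 (ENSMUSG00000002007, chrX:73774405-73778925, plus strand) encodes a kinase of serine- and arginine-rich splicing factors that is best known from muscle. It read 7.6, 5.0, 6.4, 6.2 and 5.9 in sham and 4.5, 3.3, 3.5, 3.0 and 4.7 at 7 dpi. The groups did not overlap, with 4.7 and 5.0 as the nearest values. Srpk3 fell by 0.65 on the log2 scale (SE 0.13, adjusted p = 0.0496 by limma) and was an SDEG under 8 of 22 other settings. Among immediate early genes, which neurons switch on with activity, 2 of 19 were lower at an unadjusted p under 0.05 and the median was −0.24. Arc, whose product acts at synapses, was at 18.1 to 24.0 in sham and 16.1 to 18.1 at 7 dpi (−0.23 ± 0.11 SE). Without A7-2 the count was 7 of 19 and the median −0.32, and without A7-4, A8-3, A12-2 or A12-3 the count was 0, and without A8-1, A11-4 or A12-1 it was 1.

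Genes for chaperones of the endoplasmic reticulum, where secreted and membrane proteins fold, had a slightly lower median as a list, within the spread of the sham animals. In a list of 33 drawn up after the values had been seen, 11 were lower and 1 higher at an unadjusted p under 0.05. Over all genes these shares were 3.61% and 2.22%, and the median log2 fold change of the list was −0.09. Without A12-1 or without A12-3 the number lower was 6, and without A8-3 or without A12-2 it was 7, while without A11-1 the median was −0.15. By animal the list lay between −0.12 and −0.04 at 7 dpi, and no stroke animal was outside the sham range: the sham animals A11-1 and A11-4 were at −0.21 and −0.12 and the A12 animals at 0.07 to 0.12. Pdia4, a disulfide isomerase, was at 44.3 ± 3.2 in sham and 33.8 ± 4.3 at 7 dpi (SD, n = 5 each; −0.39 ± 0.09 SE, adjusted p = 0.189 by limma). Hyou1, a large chaperone, was at 88.4 to 92.5 in sham and 73.0 to 87.9 at 7 dpi, without overlap (−0.22 ± 0.06 SE, adjusted p = 0.662 by limma). Hspa5, the master chaperone BiP, read 142 and 140 in the sham animals A11-1 and A11-4, 200 to 224 in the other 3, and 124 to 158 at 7 dpi (−0.39 ± 0.11 SE, adjusted p = 0.667 by limma). For Hspa5 too the stroke animals lay around the A11 sham animals and below the A12 animals. No member of the list was an SDEG.

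The stress response of this compartment acts through an element made of CCAAT and CCACG with 9 bases between them. Over RefSeq promoter windows from 250 bases before to 50 bases after the start (GRCm38.p6), both strands searched, 37 of 27025 genes (0.137%) hold these letters. On the chaperone list 8 of 27 genes with a window do (29.6%): 5 of the 9 that were lower at an unadjusted p under 0.05 and 3 of the other 18. Of 4 of the 5, the 109 bases of the window around the element are shown, with the pair of short words in capitals and Creld2 holding the element on the other strand. The stretches are chr2:34771995-34772103, chr12:17266461-17266569, chr14:118937797-118937905 and chr15:88819490-88819598, all on the plus strand.

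Hspa5: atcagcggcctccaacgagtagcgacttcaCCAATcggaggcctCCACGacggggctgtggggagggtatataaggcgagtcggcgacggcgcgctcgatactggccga
Pdia6: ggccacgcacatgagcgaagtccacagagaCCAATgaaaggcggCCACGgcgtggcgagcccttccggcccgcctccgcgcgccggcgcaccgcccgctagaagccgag
Dnajc3: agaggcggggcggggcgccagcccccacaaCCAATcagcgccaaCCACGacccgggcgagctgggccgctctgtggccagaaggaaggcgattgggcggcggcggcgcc
Creld2: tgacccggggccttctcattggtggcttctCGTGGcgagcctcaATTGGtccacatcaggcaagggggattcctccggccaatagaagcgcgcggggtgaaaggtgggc

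A match describes the letters of a window and is neither a bound site nor a cause. The list holds genes of this stress response, so a share above that of all genes was likely from the start. The split into 9 and 18 rests on unadjusted calls. On the list these numbered 11, but 6 without A12-1 or without A12-3. No conclusion is drawn from either share. The log2 fold changes of the other 3 genes shown were −0.27 ± 0.10 for Pdia6 (a disulfide isomerase), −0.15 ± 0.06 for Dnajc3 (a cochaperone of BiP) and −0.32 ± 0.15 for Creld2 (SE in each case), and none passed the test.

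Myelin genes also had a slightly lower median as a list. Of 21 genes of myelin and oligodendrocytes, 6 were lower at an unadjusted p under 0.05, against 3.61% of all genes. None was higher at that level, the median log2 fold change was −0.15, and 3 of the 21 were above 0. Without A7-4 or without A12-2 the count was 2 of 21 and the median −0.09, without A8-3 it was 3, and without A11-4 it was 10. By animal the list lay between −0.20 and 0.28 in sham. At 7 dpi A7-4 (−0.44) and A8-3 (−0.29) were below that range and A7-2, A7-3 and A8-1 within it. Ugt8a, the enzyme that makes the galactolipid of myelin, was at 155 to 214 in sham and 128 to 155 at 7 dpi (−0.36 ± 0.09 SE, adjusted p = 0.542 by limma). Fa2h, which hydroxylates the fatty acids of these lipids, was at 25.5 to 43.0 and 21.5 to 30.1 (−0.34 ± 0.12 SE). The 38 genes of cholesterol and myelin lipid synthesis were a list also made after the values had been seen. Of these, 8 were lower at an unadjusted p under 0.05, against 3.61% of all genes, and none higher. Among the 8 were the sterol enzymes Cyp51 (80.1 to 94.4 in sham, 63.5 to 82.8 at 7 dpi) and Hmgcs1 (222 to 287 and 189 to 235). The number lower was 4 without A11-1 or without A12-2 and 12 without A8-1. Oligodendrocyte precursor genes had a median of −0.08, with 1 of 16 lower (0 to 3 with 1 animal left out, and medians of −0.02 without A11-1 to −0.15 without A7-3). No gene of these lists was an SDEG.

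Genes of microglia and other phagocytes lay higher at 7 dpi, but none passed the adjusted test. Of 31 phagocyte and lysosome genes, 28 were above 0, 13 were higher at an unadjusted p under 0.05, against 2.22% of all genes, and none was lower at that level. The median log2 fold change was 0.21. All 18 homeostatic microglia genes were above 0 (49.8% of all genes were), with 4 at an unadjusted p under 0.05 and a median of 0.18. The number was 1 without A7-3 (median 0.12), 2 without A8-1 or without A12-3, and 7 without A8-3. In tissue, more cells of a type and more RNA per cell cannot be told apart.

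Mpeg1, which encodes the pore-forming perforin-2 of macrophages, read 5.8, 7.5, 5.4, 7.5 and 6.9 in sham and 7.7, 19.5, 8.8, 17.8 and 7.9 at 7 dpi. All stroke animals were above all sham animals, but A7-3 and A8-1 stood far above the other 3, which were close to sham. The log2 fold change was 0.75 (SE 0.22, adjusted p = 0.692 by limma). Ly86, a partner of a Toll-like receptor homolog, was at 1.6 to 2.6 in sham and read 2.9, 4.6, 2.9, 4.7 and 2.9 at 7 dpi (0.60 ± 0.19 SE), with the same 2 animals highest. Irf8, a transcription factor of microglia, was at 1.3 to 1.7 and 1.8 to 3.3 (0.56 ± 0.20 SE), and the protease gene Ctsc at 2.9 to 3.7 and 3.8 to 5.2 (0.35 ± 0.13 SE), each without overlap.

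Among Fc receptors and their signaling partners, 4 of 14 were higher at an unadjusted p under 0.05 (1 without A7-3 or without A8-1, 2 without A12-2 and 8 without A8-3) and the median was 0.27. Fcgr3, a receptor for immunoglobulin G, was at 2.0 to 3.3 in sham and read 3.0, 5.8, 2.7, 5.6 and 3.6 at 7 dpi (0.62 ± 0.19 SE, adjusted p = 0.692 by limma). Clec7a, the beta-glucan receptor that marks activated microglia, was at 0.0 to 0.3 in sham and read 0.3, 1.9, 0.5, 2.2 and 0.2 at 7 dpi, so that 2 animals carried its mean. Complement genes had a median of 0.10, with 4 of 23 higher (1 without A8-1 or without A12-1, 2 without A8-3 or without A12-3), and C1qc, a subunit of the initiating complex, was at 6.7 to 10.7 in sham and 9.5 to 21.2 at 7 dpi (0.62 ± 0.22 SE). Of the homeostatic genes, the fractalkine receptor gene Cx3cr1 was above every sham animal in 4 of 5 stroke animals (0.32 ± 0.11 SE), and Csf1r, the receptor microglia need to survive, at 26.8 to 33.7 and 29.5 to 50.3 (0.30 ± 0.12 SE, 0.20 without A7-3).

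By animal, the phagocyte and lysosome list lay between −0.04 and 0.10 in sham and was at 0.09, 0.46, 0.05, 0.44 and 0.13 at 7 dpi in the order of the labels. A7-3 and A8-1 were thus clearly above the sham range, A8-3 was slightly above it, and A7-2 and A7-4 were within it. Homeostatic astrocyte genes were also highest in A7-3 (0.14) and A8-1 (0.13), above the sham range of −0.05 to 0.05, and their part in the phagocyte values was not tested. Without A7-3 the number of genes higher at an unadjusted p under 0.05 was 5 of 31 and the median 0.16, without A8-1 it was 4 of 31 and 0.14, and without any other single animal 10 to 14 of 31. Homeostatic microglia gave the same picture, with 0.34 in A7-3, 0.33 in A8-1 and the other 3 between 0.00 and 0.12. Antigen presentation genes were higher in more of the animals: 4 of 14 had an unadjusted p under 0.05 (1 without A8-3 or without A11-1, 2 without A11-4), the median was 0.21, and H2-K1, a class I heavy chain, was at 9.8 to 13.8 in sham and 13.9 to 16.3 at 7 dpi (0.31 ± 0.13 SE), without overlap. Cd274, which encodes the checkpoint ligand PD-L1, was at 3.1 to 4.5 and 4.7 to 5.3, also without overlap (0.36 ± 0.11 SE). Interferon-stimulated genes had a median of 0.13 (0.23 without A8-1 and 0.08 without A7-2) and 2 of 25 higher (4 without A7-4, 1 without A11-1), and 0 of 25 without A7-2, in which Irf7, a regulator of that response, was highest (2.6, against 0.9 to 1.3 in sham).

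**Figure D3:**
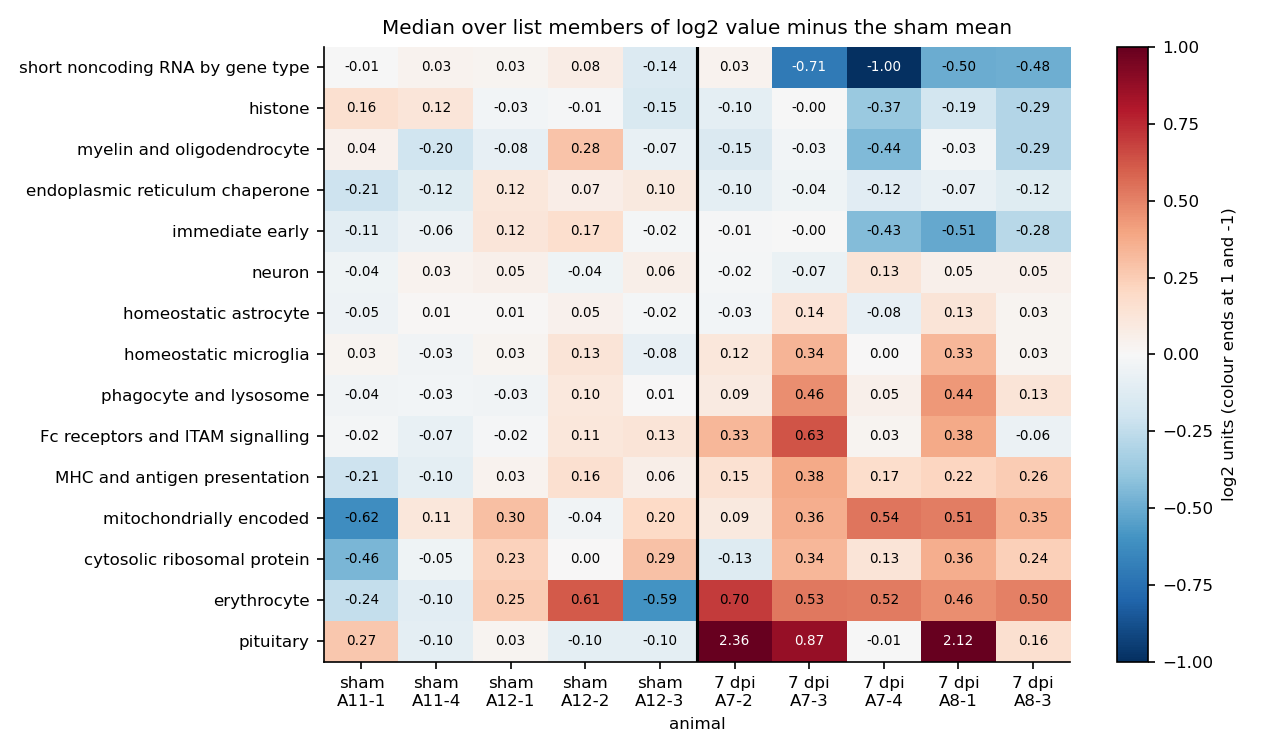
Each square is the median over the members of 1 gene list (rows) of the log2 value minus the sham mean, in 1 animal (columns, sham left of the line, 7 dpi right), with red above and blue below the sham mean. The short noncoding RNA list is at −0.48 or lower in 4 of the 5 stroke animals and at 0.03 in A7-2, and the phagocyte and lysosome list is highest in A7-3 (0.46) and A8-1 (0.44).

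Leukocyte, border macrophage, astrocyte and vascular genes had few members at an unadjusted p under 0.05. Ptprc, the pan-leukocyte gene that microglia also express, was higher and the monocyte receptor gene Ccr2 lower at an unadjusted p under 0.05 (0.45 and −0.41) among 9 leukocyte genes. None of 5 border macrophage genes reached that level. Reactive astrocyte genes had a median of 0.21 (0.11 without A8-1, 0.13 without A7-3 or without A12-1, 0.14 without A11-1), with 1 of 20 higher (0 to 3 with 1 animal left out) and 1 lower. By animal the list was above the sham range (−0.10 to 0.13) in A7-3 (0.26), A8-1 (0.20) and A8-3 (0.16), the animals that were also above it for the phagocyte and lysosome list. Gfap, the astrocyte filament, read 236, 131, 126, 303 and 117 in sham and 283, 408, 164, 291 and 212 at 7 dpi (0.61 ± 0.24 SE, adjusted p = 0.791 by limma), and Nes, an intermediate filament of immature and reactive cells, was at 9.3 to 12.7 and 6.1 to 10.2 (−0.45 ± 0.15 SE). The spread of Gfap within the sham group covered most of the stroke values. In vessels, Ackr1, a chemokine-binding receptor of venules, was at 5.3 to 7.5 in sham and at least 7.6 in every 7 dpi animal (0.48 ± 0.14 SE, adjusted p = 0.667 by limma), while of 21 endothelial and pericyte genes 2 were higher and 2 lower.

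Mitochondrially encoded transcripts were higher as a group, with 8 of 13 at an unadjusted p under 0.05, against 2.22% of all genes. None was lower at that level and the median was 0.38. The count rested on 1 sham animal: without A11-1 it was 0 of 13 and the median 0.23. Without A7-4 or A8-1 the count was 3 of 13, without A12-2 it was 4 and without A7-3 it was 5. mt-Nd2, a complex I subunit, read 266, 448, 555, 404 and 457 in sham and 474, 581, 738, 638 and 579 at 7 dpi (0.52 ± 0.21 SE, adjusted p = 0.796 by limma). The sham animal A11-1 was lowest for this list at −0.62 and the other 4 lay between −0.04 and 0.30, with 4 of 5 stroke animals above all of them. Nuclear genes of oxidative phosphorylation had a median of 0.17, with 73 of 77 above 0 and 1 at an unadjusted p under 0.05, and cytosolic ribosomal protein genes 0.20, with 93 of 102 above 0 and 3 at that level. A11-1 was again lowest, at −0.46 in both lists. Without A11-1 the medians were 0.05 and 0.08 with no gene higher at that level. The counts were 11 of 77 and 25 of 102 without A7-2, 18 and 13 without A12-1 and 9 and 24 without A12-3, and without any other single animal they were 0 to 2 and 1 to 4.

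**Figure D4:**
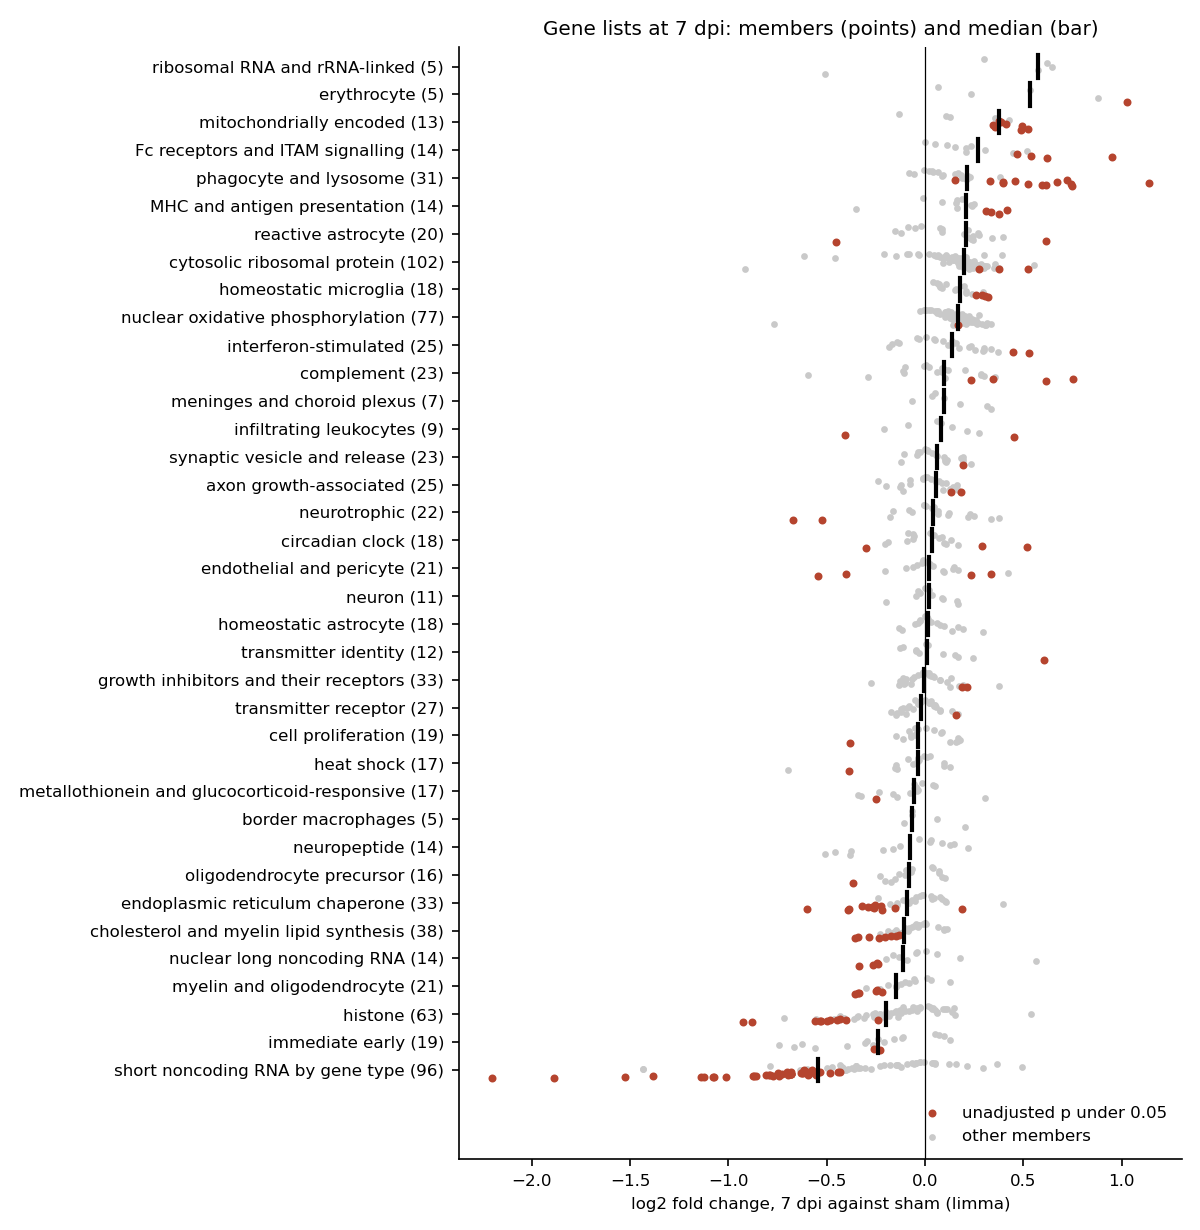
Log2 fold change at 7 dpi against sham of each member (points) of the gene lists with at least 5 members, ordered by their median (black bar), with the number of members in brackets and red points at an unadjusted p under 0.05. Of the lists drawn, short noncoding RNAs have the lowest median (−0.54); the 30-gene small noncoding RNA list within it (−0.61) is not drawn. The list with the highest median, the 5 members linked to ribosomal RNA (0.57, and 0.28 without A7-2), holds no red point.

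Transcripts that belong to other tissues were present in some stroke animals. Prl and Gh, the prolactin and growth hormone genes of the pituitary, were at 0.0 to 0.2 and 0.0 to 0.1 in sham. Prl read 19.6, 0.9, 0.0, 6.5 and 0.3 and Gh 7.4, 0.5, 0.0, 4.5 and 0.3 at 7 dpi, highest in A7-2 and A8-1 for both. They did not pass the test (adjusted p = 0.791 for each by limma), except with every animal rescaled to the same sum (adjusted p = 8.277e-05 for Prl and 0.00262 for Gh). Hemoglobin transcripts were low in all animals, with Hbb-bs at 2.6 to 5.4 in sham and 5.6 to 8.6 at 7 dpi without overlap (0.88 ± 0.56 SE, adjusted p = 0.884 by limma), a gene that shares 54.4% of its words with Hbb-bt. None of 3 Schwann cell and root genes reached an unadjusted p under 0.05. None of 7 meningeal and choroid plexus genes did either, but the median of that list was above the sham range (−0.21 to 0.15) in 3 of 5 stroke animals, at 0.49 in A8-1, 0.24 in A8-3 and 0.23 in A7-2, within it at −0.16 in A7-3 and below it at −0.28 in A7-4. The part of the pituitary, red cell and meningeal transcripts in the other results was not tested.

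Further genes were named by a rule that takes large differences without overlap and leaves out predicted-gene and clone names. Over all genes, 0.388% lay higher and 0.583% lower without overlap. Higher were Hoxc8, a positional gene of the lower cervical and thoracic cord (26.2 to 38.6 in sham, 39.9 to 54.1 at 7 dpi), Pdlim4 (1.7 to 2.7 and 2.8 to 3.9), Trim12a (1.6 to 2.5 and 2.7 to 3.2), Fer1l5 (2.4 to 3.2 and 3.3 to 3.9) and Scube1 (7.7 to 9.7 and 9.9 to 13.4). Lower were Ccdc120 (3.6 to 4.6 and 2.4 to 3.4), Tmem86b, a lysoplasmalogenase gene (2.7 to 3.5 and 1.4 to 2.5), Triml1 (3.8 to 4.6 and 2.0 to 3.7) and Rab43, a small GTPase gene (6.1 to 8.4 and 2.7 to 6.0) that shares 74.8% of its words with an overlapping gene. Of 2 overlapping genes listed under the vomeronasal receptor symbol Vmn2r29, the one listed as Vmn2r29_ENSMUSG00000110105 had a mean of 6.84 in sham and 4.88 at 7 dpi without overlap (−0.44 ± 0.13 SE). Arntl, the clock gene Bmal1 was at 8.7 to 11.7 and 7.1 to 8.6, the only one of 18 circadian clock genes lower at an unadjusted p under 0.05. The clock-controlled genes Dbp (9.7 to 24.8 and 20.1 to 27.9) and Nr1d1 (9.4 to 15.6 and 13.4 to 17.7) were higher at that level, neither of them without A12-1, and the median of the list was 0.03. None passed the adjusted test, and Hoxc8 and Rab43 did not reach an unadjusted p under 0.05 by limma. Slc17a8, the vesicular glutamate transporter VGLUT3, was at 0.6 to 1.1 in sham and 1.1 to 2.1 at 7 dpi (0.60 ± 0.16 SE, adjusted p = 0.612 by limma), the only one of 12 transmitter identity genes at an unadjusted p under 0.05. Of lists linked to axon growth, 2 of 25 growth-associated genes and 2 of 33 growth inhibitors or their receptors were higher at that level and none lower, with medians of 0.05 and −0.01. With 1 animal left out the counts were 0 to 2 (0 without A7-4, A8-3 or A11-1) and 0 to 3 (0 without A8-3). Across 23 synaptic vesicle genes and 27 transmitter receptor genes, 1 each was higher.

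The 7 dpi animals were also compared directly with the 4 animals at 4 dpi and the 5 at 14 dpi. The sham mean does not enter these differences, but the sham animals share in the estimate of the spread. Against 4 dpi there was no SDEG (0 of 16995, 0%) by limma, 126 genes (0.741%) were higher and 369 (2.17%) lower at 7 dpi at an unadjusted p under 0.05. Rn7s6 came nearest, at 1.7, 1.5, 3.6 and 5.1 at 4 dpi (log2 difference −1.80, adjusted p = 0.0519 by limma), and every 7 dpi animal was below every 4 dpi animal. Gm26315 was lower by 1.36 (adjusted p = 0.568 by limma). Of the 96 short noncoding RNAs 8 were lower at 7 than at 4 dpi at an unadjusted p under 0.05 and none higher, with a median of −0.21.

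Phagocyte genes were also lower at 7 than at 4 dpi: 8 of 31 phagocyte and lysosome genes, 4 of 14 Fc receptor genes, 6 of 23 complement genes and 4 of 18 homeostatic microglia genes at an unadjusted p under 0.05, with none higher and medians of −0.18, −0.32, −0.15 and −0.18. By animal the groups overlapped: the phagocyte and lysosome list was at 0.52, 0.66, 0.10 (A9-2) and 0.49 at 4 dpi and at 0.05 to 0.46 at 7 dpi. The log2 difference was −0.68 for Fcgr3, −0.60 for Mpeg1 and −0.44 for Csf1r, and 0.14 for Vgf. None of these 4 genes was an SDEG in this contrast.

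Against 14 dpi there was again no SDEG (0 of 16995, 0%) by limma, with 671 genes (3.95%) higher and 339 (1.99%) lower at 7 dpi at an unadjusted p under 0.05. Rn7s6 was at 0.1 to 0.3 at 14 dpi, so the 7 dpi values of 0.3 to 0.7 overlapped with them only at 0.3 (log2 difference 0.42, adjusted p = 0.876 by limma). None of the 31 phagocyte and lysosome genes and none of the 14 Fc receptor genes reached an unadjusted p under 0.05 in this contrast, with medians of −0.05 and −0.07. Mitochondrially encoded transcripts had a median of −0.23 with 1 of 13 lower. Of 33 genes of growth inhibitors or their receptors 7 were higher and 1 lower at 7 dpi, and of 23 synaptic vesicle genes 7 were higher. The remaining 18S RNA was 419050 in A5-3 and 817780 in A6-3 at 14 dpi, against at most 116302 at 7 dpi. Its part in these list values was not tested.

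**Figure D5:**
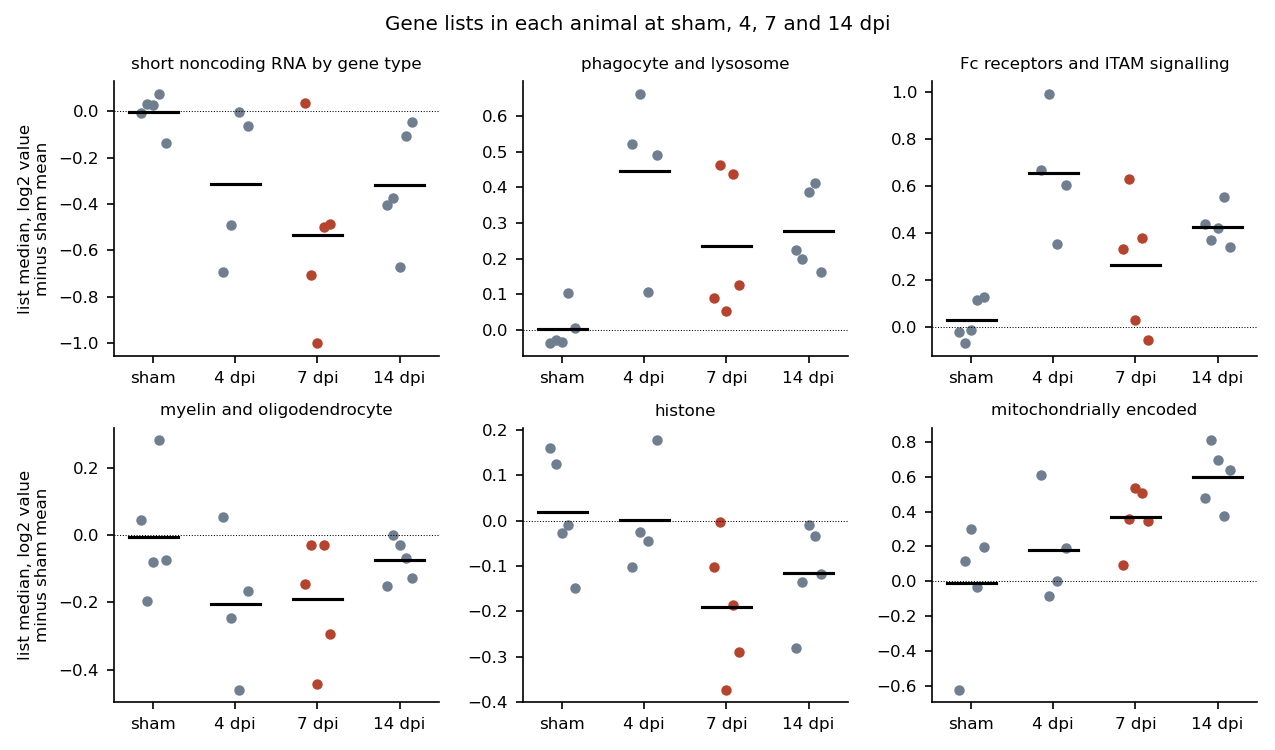
Median over 6 gene lists of the log2 value minus the sham mean, 1 point per animal, in sham, 4, 7 (red) and 14 dpi, with black bars at the group means. At 7 dpi the short noncoding RNAs reach from −1.001 to 0.03 and the phagocyte and lysosome list from 0.05 to 0.46.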

How the data were processed

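Total RNA depleted of ribosomal RNA was sequenced by the authors as single-end reads with a kit that does not mark strand, quantified with SALMON and Tximport against mm10, and normalized with edgeR 3.14.0 in R 3.4.1. The deposited values are the authors' normalized CPM, rounded to 0.1 and treated here as a score, because their sums per animal (758523 to 939917 in these 10 animals) differ from those of plain CPM. They are not counts, so the sequencing depth is unknown and no count test was run. Of 30 labelled animals, 29 have values. Per the study's methods, group assignment was randomized in blocks over the surgery days and RNA of all animals was extracted together. Litters and sequencing batches are not given in the sources used here, so p-values cover the spread between these animals.

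The log2(value + 0.5) was fitted with limma 3.58.1 (R 4.3.3) with a mean-variance trend and 1 mean per group over all animals, and p-values were adjusted by Benjamini and Hochberg over 16995 genes. Single genes were also tested with an exact permutation test over the 10 animals. No 2 animals had the same values, with at most 3.96% of genes equal in a pair. Gene positions and types came from GENCODE M21 (16930 genes found), and sequences from GRCm38 and RefSeq. The genes named are the SDEGs, the 12 largest differences in each direction without overlap and a mean of at least 2 (names of Gm and digits, names ending in Rik and clone names left out), the up to 3 members of each list with the lowest p, and genes that share sequence with these. Pdia4, Hyou1, Sdf2l1, Pdia6, Dnajc3, Creld2, Calr, Cyp51, Hmgcs1, AU020206 and Rpph1, and members of lists named beside their counts, were picked with their values in view. The comparison and the gene lists were chosen with earlier results of these data known, so lists are given as counts and medians with no test. Alternatives changed the pseudocount, scaling, variance model, covariates, filter and limits and left out each animal. One RNA's sequence is not reported here.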

Additional observations from a re-analysis of the deposited data

Results flagged for a closer look

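Of 172 groups of 5 values checked over the named genes, 8 held 1 value far from the other 4, where chance gives about 1 in 20. At 7 dpi these were Hoxc8 in A7-3, at 54.1 with the nearest at 43.0, Gm26461 in A7-4, at 0.2 with the nearest at 0.8, and Hyou1 in A7-2, at 87.9 with the nearest at 76.9. Hoxc8 and Gm26461 lay farther from sham in that animal than in the others, and Hyou1 lay nearer to sham. In the sham group they were Rab43 in A11-1 (8.4, nearest 6.7), Tmem86b in A12-2 (3.5, nearest 2.9), Fcer1g in A12-3 (1.5, nearest 1.0), Prl in A11-1 (0.2, the others at 0.0) and the 18S RNA Rn18s-rs5 in A12-1 (52929.1, nearest 36051.5). The Prl value is 2 steps of the rounding.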

How the results depend on the processing

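None of the 85 named genes followed changed direction under any alternative, and 40 medians of 15 gene lists, each within 0.08 of 0, did. Other genes named, such as Snap25, Ptprc and Ccr2, were not followed in this way. The number of SDEGs at 7 dpi against sham was 5. It was 1 with quantile normalization, median centring, no variance trend, only the groups compared or a pseudocount of 0.1, each time Rn7s6. It was 3 after correction for length and GC content, 8 with sample weights, 8 at an adjusted p under 0.1 and 20 with every animal rescaled to the same sum. Leaving out 1 animal gave 1 to 6: 6 without A7-2, 3 without A8-3 or A11-1, 2 without A7-4 and 1 without each of the others. Against 4 dpi, where it was 0, it was 1 with an 18S covariate, a pseudocount of 0.1 or the unit of the label as a block, 2 with weights, 3 at an adjusted p under 0.1, 9 with equal sums, and 0 to 2 with 1 animal left out. Against 14 dpi it was 1 with only the groups compared and 8 with equal sums.

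At an unadjusted p under 0.05, 378 genes were higher and 614 lower (992 in all). With equal sums there were 56 and 181 (237 in all), with weights 585 were higher, and with 1 animal left out 269 to 581 were higher and 405 to 770 lower (674 to 1351 in all), the most without A7-2 and the fewest without A11-1. The causes were not tested. Of 1869 values of the 85 named genes followed, 58 lost the call and 14 gained it. Of 560 list medians, 25 moved by more than the spread between animals. No paired analysis was possible because the groups share no animal number. The unknown depth and the rounding to 0.1 limit the 1500 genes with a mean under 1 most.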

Other observations

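The ratio of Rn7s6 to Rn7s1 in the same animal, per 100000 units of Rn7s1, can be followed over the whole series. It was 15.2 to 21.1 in sham, 10.8 to 25.4 at 4 dpi, 2.13 to 4.67 at 7 dpi, 0.66 to 2.06 at 14 dpi, 14.6 to 21.8 at 28 dpi and 4.93 to 23.8 at 42 dpi. The animals at 7 and 14 dpi thus lay below all others. Gm26315 per 100000 units of Rn7sk was 45.3 to 61.0 in sham and 47.7 to 63.2 at 4 dpi, and 12.4 to 36.3 at 7 dpi, 13.4 to 27.9 at 14 dpi, 14.3 to 29.5 at 28 dpi and 4.80 to 20.4 at 42 dpi. Here the later animals stayed below the sham range.

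Rny3, Rny1 and Pdia4 lie next to each other on chromosome 6, with 6343 bases between Rny3 and Rny1 and 7960 between Rny1 and Pdia4. Among the stroke animals Pdia4 was highest in A7-2, as both Y RNAs were, at 40.6 against at most 34.5 in the other 4, where sham ranged from 40.3 to 47.7. The rank is not particular to these neighbors: Rmrp on chromosome 4 and Hyou1 on chromosome 9 were also highest in A7-2 among the stroke animals.

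The long noncoding RNA AU020206, chosen after its values were seen, read 1.9, 1.4, 1.9, 2.1 and 1.6 in sham and 3.5, 4.0, 2.7, 3.2 and 2.9 at 7 dpi. The groups did not overlap (log2 fold change 0.72 ± 0.16 SE, adjusted p = 0.189 by limma).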
